A study of Mus musculus with 33 samples.

Results

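The mitochondrial ribosomal protein genes were taken as every gene whose symbol starts with Mrpl or Mrps followed by a digit, pseudogenes left out. In all, 76 genes met this rule, found on 76 of the 37926 records of each RNA table and among the 36194 genes of the iCLIP tables. By textbook assignment 49 of them encode proteins of the large and 26 of the small subunit of the mitochondrial ribosome. The remaining gene, Mrps36, carries the name but encodes a subunit of the oxoglutarate dehydrogenase complex. Of the 75 ribosomal members, 46 have a bacterial counterpart and 29 do not. Mrps18a and Mrps30 were counted with the large subunit, where their proteins sit.

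The mitochondrial ribosome translates the few proteins that mitochondrial DNA encodes, all of them subunits of the respiratory chain and the ATP synthase. Its RNAs come from mitochondrial DNA, but every protein comes from a nuclear gene, is made in the cytosol and is imported. Motoneuron axons are long and hold many mitochondria, and mRNAs of nuclear-encoded mitochondrial proteins are known to be present in axons.

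The cells were primary motoneurons of CD-1 mice, grown for RNA-seq in microfluidic chambers that part the axons from the somatodendritic side (called cell bodies here), and NSC34 cells, an established mouse line made by fusing neuroblastoma cells with spinal cord cells. RNA-seq covered hnRNP R knockdown axons and cell bodies (3 libraries each), 7SK knockdown axons and cell bodies (4 libraries each) and GFP control axons and cell bodies (4 libraries each). hnRNP R is a nuclear RNA-binding protein that is also found in axons, and 7SK is a noncoding RNA that restrains transcription elongation. The knockdown method is not described in the labels. iCLIP, which counts cDNAs that stop where ultraviolet light crosslinked a protein to RNA, covered hnRNP R antibody 1 in wild-type motoneurons and NSC34 cells (2 libraries each), antibody 1 in the nuclear and cytoplasmic fractions of both, antibody 2 in both fractions of NSC34 cells, and an IgG control in NSC34 cells (1 library each). The labels do not say whether libraries of a group came from separate cultures, so a p-value measures the spread between these libraries only.

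The RNA tables give 1 FPKM value per group (fragments scaled to gene length and library size), the authors' own, so no spread between libraries can be shown and the depth is unknown. Hnrnpr had 3.98 FPKM in hnRNP R knockdown axons against 9.93 FPKM in GFP axons, a record the authors did not test. In cell bodies it had 10.8 FPKM with hnRNP R knockdown against 27.2 FPKM in GFP, which was not called (authors' deposited table, q = 0.31). Rn7sk, the 7SK gene, had 6370 FPKM in 7SK knockdown cell bodies against 9104 FPKM in GFP cell bodies, but 3508 FPKM in the axons labelled 7SK knockdown against 2708 FPKM in GFP axons. That axon group thus went against its label (authors' deposited table, q = 0.594) and is named here as labelled. Of 8 motoneuron markers 7 had a record; Chat, Isl2 and Mnx1 were listed at 0 in all groups, cell bodies included. The list of 14 microglia and macrophage markers summed to 194 FPKM in the axons labelled 7SK knockdown against 13.6 FPKM in GFP axons (13 of 14 higher), and to 35.2 FPKM in hnRNP R knockdown axons against 13.3 FPKM in GFP axons (13 of 14 higher). In cell bodies it summed to 75.2 and 109 FPKM with hnRNP R and 7SK knockdown, against 78.1 and 71.8 FPKM in the GFP value of each table. Motoneuron markers summed to 6.26 FPKM in hnRNP R knockdown axons and 5.80 FPKM in the axons labelled 7SK knockdown, against 20.5 and 21.2 FPKM in GFP axons. Only 3 of the 7 records reached 1 FPKM in GFP axons. Their cell body sums were 10.3 and 8.27 FPKM with hnRNP R and 7SK knockdown, against 11.5 and 10.6 FPKM in GFP. Astrocyte and radial glia markers (9 genes) summed to 537 FPKM in the axons labelled 7SK knockdown against 675 FPKM in GFP axons (4 higher, 1 called lower). Fibroblast markers (10 genes) summed to 556 FPKM in the axons labelled 7SK knockdown against 1059 FPKM in GFP axons (1 called lower), and to 217 FPKM in 7SK knockdown against 135 FPKM in GFP cell bodies (2 called higher). Oligodendrocyte markers (8 genes) summed to 45.9 FPKM in hnRNP R knockdown axons against 24.0 FPKM in GFP axons. The part of such cells in the ratios of mitoribosomal genes was not tested. In such bulk samples fewer cells of a type and less RNA per cell cannot be told apart.

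The promoters of Mrpl17 and Mrpl52 are shown because these are the members on a record of their own that the authors tested in every comparison, and the stretch between Mrpl46 and Mrps11 because a large and a small subunit gene start back to back there. The sequences are from RefSeq, build GRCm38.p6. The first 2 are the 200 bases before each start, at chr7:105811088-105811287 on the minus strand for Mrpl17 and at chr14:54426709-54426908 on the plus strand for Mrpl52. The last is the whole stretch of 41 bases between the starts of Mrpl46 (minus strand) and Mrps11 (plus strand), at chr7:78783090-78783130, read on the plus strand. Capitals mark matches to the motifs named below.
Mrpl17: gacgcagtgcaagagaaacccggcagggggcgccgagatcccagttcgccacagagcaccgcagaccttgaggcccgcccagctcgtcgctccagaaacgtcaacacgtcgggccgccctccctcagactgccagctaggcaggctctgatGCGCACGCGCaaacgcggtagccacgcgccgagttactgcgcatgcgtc
Mrpl52: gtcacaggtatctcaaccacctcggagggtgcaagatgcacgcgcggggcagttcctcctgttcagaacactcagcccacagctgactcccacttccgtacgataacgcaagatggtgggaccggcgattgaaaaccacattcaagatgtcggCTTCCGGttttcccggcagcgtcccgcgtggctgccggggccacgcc
Mrpl46 to Mrps11: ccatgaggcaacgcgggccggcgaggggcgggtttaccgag
The capitals in Mrpl17 are a match to the NRF1 motif on the opposite strand, 49 to 40 bases before the start, and those in Mrpl52 a match to the ETS motif on the opposite strand, 47 to 41 bases before it. In the same build the Mrpl17 gene lies at chr7:105803782-105811087 and the Mrpl52 gene at chr14:54426909-54429750, so both windows end where the gene begins. NRF1 and ETS factors such as GABP are known activators of nuclear genes for mitochondrial proteins.

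RefSeq promoters were at hand for 67 of the 76 members. In the 250 bases before the start, searched on both strands, the NRF1 motif (GCGC, any base, TGCGC) was in 9 of 67 members (13.4%) and in 4.23% of all 27025 genes. The ETS motif CCGGAAG was in 17 members (25.4%) and in 7.83% of all genes, and the YY1 motif AAGATGGCG in 2 members (2.99%) and in 0.71% of all genes. TATAAA was found in 5 members (7.46%) and in 14.3% of all genes. The median GC content was 58.4% in member entries and 52.4% over all promoter entries. An ETS match can share its last letters, AAG, with a YY1 match, and a match is a string of letters, not a site.

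In GFP control axons, mitoribosomal mRNAs were present at moderate levels: the 76 values ran from 0.476 to 39.5 FPKM with a median of 8.39, and 27 were at 10 FPKM or more. GFP cell bodies gave 1.25 to 45.6 FPKM with a median of 12.7 and 46 members at 10 FPKM or more. Highest in control axons was Mrps6, a small subunit protein, with 39.5 FPKM in axons against 30.2 FPKM in cell bodies; its record is merged with the transporter gene Slc5a3, and the 2 share the value. Then came Mrpl33 of the large subunit, on a record merged with Bre, with 33.5 FPKM in axons against 40.4 in cell bodies, and the small subunit genes Mrps21 (26.2 against 42.4) and Mrps23 (26.0 against 31.0). Below these, Mrpl17 had 24.9 FPKM in axons against 45.6 in cell bodies, where it ranked first. The large subunit genes Mrpl52 (22.8 against 16.5), Mrpl42 (22.8 against 45.1), Mrpl41 (22.0 against 38.4), Mrpl12 (19.8 against 10.9) and Mrpl54 (19.0 against 18.4) completed the 10 highest. The 5 lowest in axons were Mrpl1 (0.476 against 2.75), Mrps14 (0.93 against 6.74), Mrps26 (1.42 against 8.82), Mrpl23 (1.65 against 1.98) and Mrps33 (1.82 against 3.62). High members on one side were mostly high on the other (Spearman's rho 0.81 across the 76 genes, a description). With no replicate values, neighbours in this order cannot be told apart.

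**Figure D1:**
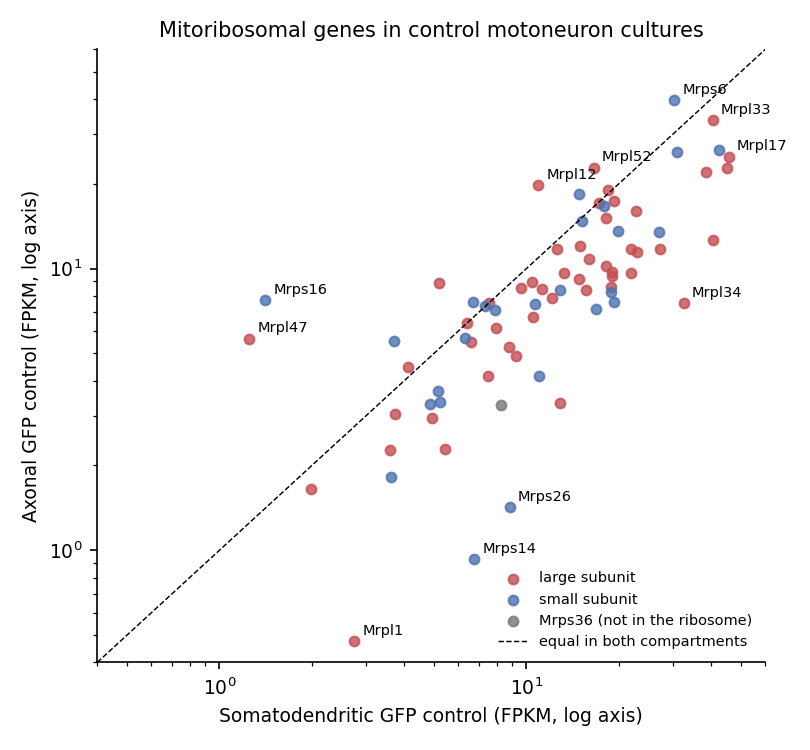
FPKM of the 76 members in the axonal GFP control (y) against the somatodendritic GFP control (x), both on log axes, 1 point per gene, coloured by subunit, with a dashed line of equality. Most points (64 of 76) lie below the line (55 with the GFP values of the 7SK tables, not plotted), and Mrps16 and Mrpl47 lie farthest above it.

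Relative to cell bodies, most members were lower in control axons, and by about as much as genes in general. On log2(FPKM + 0.1) 12 of 76 members were higher and 64 lower in axons, with a median log2 ratio of axons over cell bodies of -0.55. Over all 13576 records at 1 FPKM or more on either side the median was -0.58 and 29.5% were higher in axons. Large subunit genes had a median of -0.61 (6 of 49 higher) and small subunit genes of -0.53 (6 of 26 higher). By the same measure the cytosolic ribosomal protein genes stood higher in axons and the nuclear-encoded respiratory chain genes, whose mitochondrial partners these ribosomes make, lower, with medians of 0.21 (44 of 67 higher) and -0.84 (7 of 78 higher). Chosen after their values were seen, Mrps16 had 7.72 FPKM in axons against 1.41 in cell bodies and Mrpl47 5.64 against 1.25, while Mrpl34 had 7.56 against 32.5. The tables of the 2 compartments were scaled separately, so these ratios have no test; the GFP values of the 7SK tables, the same libraries rescaled, gave 21 members higher and 55 lower, with a member median of -0.40 beside -0.41 over all records.

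Knockdown of hnRNP R in axons was compared with GFP first. No mitoribosomal gene passed the authors' q under 0.05, while most had a higher value in the knockdown group. The authors tested only records that were high in a group (the lowest tested record reached 21.8 FPKM in its higher group), which left 16 of 76 members with a test and 60 without. Of the 1749 tested records, 0.114% were called. At an unadjusted p under 0.05 the authors' deposited table held 1 of the 16 members and 9.26% of all tested records.

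Among the 16 tested members 13 were higher and 3 lower in hnRNP R knockdown axons, with a median log2 ratio of 0.68 beside 0.14 over all tested records. Because a member could enter this set through a high knockdown value alone, the same was read over the 75 members with a mean of both groups at 1 FPKM or more, with 1 FPKM added to each value. There 54 were higher and 21 lower with a median of 0.33, against 51.7% higher and a median of 0.029 over 12087 records. Members summed to 1018 FPKM in the knockdown and 781 FPKM in GFP, which was 0.164% and 0.161% of the summed FPKM, of which the locus Gm26924 held 47.5% and 46.7%. Cytosolic ribosomal protein genes had a median of 0.47 and respiratory chain genes of 0.48 on the same scale, so both lists also had mostly higher values. The value over members moved from 0.68 to 0.33 with the choice of members, and no test of the list was run.

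Over all members at the 1 FPKM mean, 36 of 48 large subunit genes (median 0.34) and 17 of 26 small subunit genes (median 0.25) were higher in hnRNP R knockdown axons. Of the tested ones, 11 were of the large and 5 of the small subunit, but 6 and 2 of these had a GFP value under 21.8 FPKM, the lowest level tested, and could enter only with a higher knockdown value, so their direction is no result. These are Mrpl2, Mrpl20, Mrpl24, Mrpl28, Mrpl54, Mrps18a, Mrps17 and Mrps24. Mrpl2, a core protein near the peptidyl transferase centre, had 25.3 FPKM in knockdown axons against 9.74 FPKM in GFP axons, or 1.38 as log2 ratio (authors' deposited table, q = 0.77). Mrpl24 stood at 22.1 against 9.66 FPKM (log2 ratio 1.19, authors' q = 0.615). Mrpl28 had 25.8 against 11.4 FPKM, with a log2 ratio of 1.18 and the smallest p of the members, 0.0403 before adjustment (authors' deposited table, q = 0.50). None of these differences passed the authors' test. Mrps18a, a large subunit protein despite its name, had 27.1 against 12.6 FPKM (1.10), Mrpl20 33.4 against 17.1 (0.96), Mrps17 30.6 against 16.6 (0.88), Mrpl54 32.1 against 19.0 (0.75), Mrpl42 36.8 against 22.8 (0.69) and Mrpl17 39.7 against 24.9 FPKM (0.67), each as log2 ratio of the authors' deposited table. Among tested members the largest ratio in the other direction was that of Mrps23, which lacks a bacterial counterpart: 11.5 FPKM in knockdown axons against 26.0 FPKM in GFP axons, a log2 ratio of -1.18 (authors' q = 0.631). Among untested members, named after their values were seen, Mrps16 had 2.09 against 7.72 FPKM, Mrpl22 4.61 against 15.1 and Mrps10 a log2 ratio of -1.20. Higher among the untested were Mrps26 (4.67 against 1.42 FPKM), Mrps5 (11.4 against 4.15) and Mrps14 (12.5 against 0.93). Mrps14 had the largest ratio of all members, 3.75 as log2 ratio, from a GFP value under 1 FPKM. Members with a bacterial counterpart had a median of 0.20 and those without one of 0.37.

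**Figure D2:**
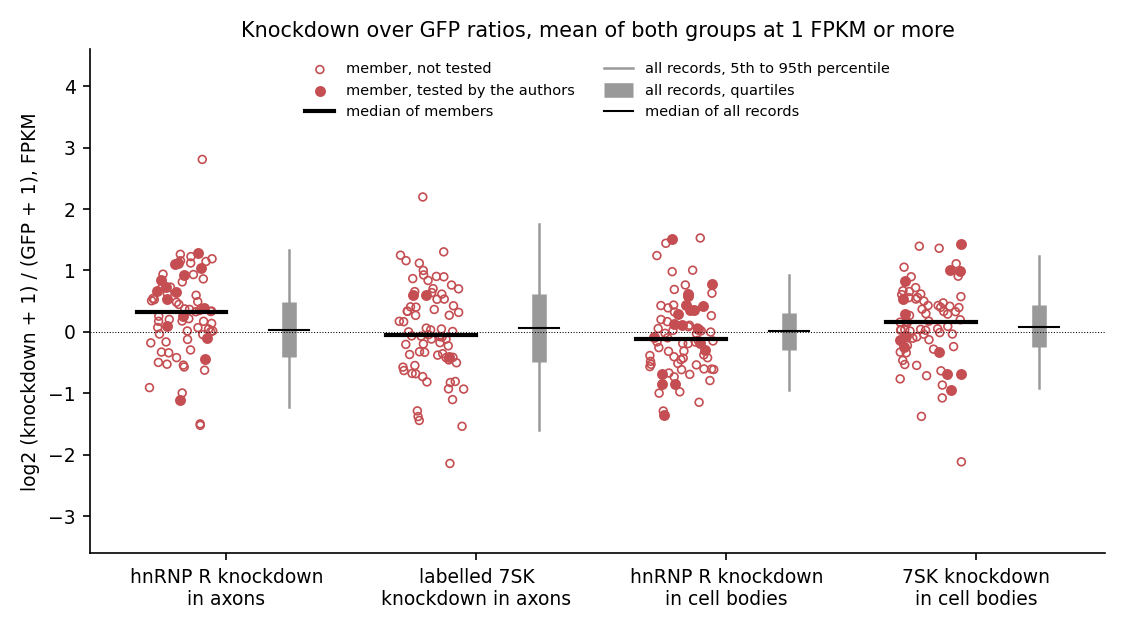
Log2 ratio of knockdown over GFP with 1 FPKM added (y) in the 4 comparisons (x), for members with a mean of 1 FPKM or more: filled points were tested by the authors, open points were not, and thick lines are member medians. Grey bars give quartiles and the 5th to 95th percentiles of all records with the same mean; member medians are 0.33, -0.045, -0.12 and 0.16 in the order plotted.

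In the axons labelled 7SK knockdown the mitoribosomal genes showed no common direction. The comparison uses the same GFP libraries as the one before. Only 3 members were tested, 0 were called, and 3.07% of the 1009 tested records were called. Mrpl17 had 39.5 FPKM in these axons against 25.7 FPKM in GFP axons (authors' deposited table: log2 ratio 0.62, q = 0.801), and Mrpl52 had 35.99 against 23.4 FPKM (0.62, authors' q = 0.671). Mrps6, on its merged record, had 30.2 against 40.6 FPKM (-0.43, authors' q = 0.792). The lowest level tested here was 35.5 FPKM, so Mrpl17 and Mrpl52 could enter only with a higher knockdown value. Among the 73 untested members Mrps33 and Mrps36 were listed at 0 in these axons.

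Over the 75 members with a mean of 1 FPKM or more, 37 were higher and 38 lower in the axons labelled 7SK knockdown, and the median with 1 FPKM added was -0.045, against 0.058 over 12402 records. Large and small subunit genes had medians of 0.0074 and -0.12. Members summed to 0.144% of the FPKM in the axons labelled 7SK knockdown against 0.161% in GFP axons, where Gm26924 held 38.5% against 46.7%. On that scale cytosolic ribosomal protein genes had a median of 0.63 and respiratory chain genes of 0.59 (65 of 73 higher). The difference between the lists was not tested. Mrpl2, at 25.3 FPKM in hnRNP R knockdown axons, had 4.14 FPKM in the axons labelled 7SK knockdown against 10.0 FPKM in GFP axons, too low for the authors' test.

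hnRNP R knockdown in cell bodies gave the largest ratios among tested members of the 4 tables, in both directions. Of 19 tested members 0 were called, where 0.975% of 2768 tested records were; at an unadjusted p under 0.05 there were 5 members, all of the large subunit, 2 higher and 3 lower, beside 12.3% of all tested records. Mrpl52 had 49.1 FPKM in hnRNP R knockdown cell bodies against 16.5 FPKM in GFP cell bodies, or 1.57 as log2 ratio (authors' deposited table, q = 0.297). Mrpl17 had 17.2 FPKM in knockdown cell bodies against 45.6 FPKM in GFP cell bodies, or -1.40 as log2 ratio (authors' deposited table, q = 0.269). Neither passed the threshold, and Mrpl52, Mrpl2, Mrpl18 and Mrps34, with GFP values under the lowest level tested (20.9 FPKM), could enter only with a higher knockdown value. Mrpl10, whose protein carries the stalk of the large subunit, had 11.6 against 21.8 FPKM (-0.91, authors' q = 0.301), and Mrpl42 24.8 against 45.1 FPKM (-0.87, authors' q = 0.323). Mrpl49 had 33.4 against 21.9 FPKM (0.61, authors' q = 0.301). Of the remaining named members, Mrpl2 (33.4 against 19.0 FPKM), Mrps18c (41.8 against 27.0), Mrps34 (27.1 against 19.9, merged with Nme3) and Mrpl18 (21.8 against 16.0) had higher values and Mrpl28 (13.9 against 22.9) a lower one, with unadjusted p from 0.139 to 0.434 in the authors' deposited table.

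Read over all 76 members, hnRNP R knockdown cell bodies had 33 higher and 43 lower values than GFP cell bodies. The median with 1 FPKM added was -0.12, against 0.018 over 12597 records, while the 19 tested members had a median log2 ratio of 0.13 beside 0.021 over all tested records. The sign thus rested on which members were read. Members summed to 1148 FPKM in knockdown and 1139 FPKM in GFP cell bodies. Large and small subunit genes had medians of -0.14 and -0.13.

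In 7SK knockdown cell bodies, against the same GFP libraries, 0 of 13 tested members were called and 2.51% of the 1954 tested records were. At an unadjusted p under 0.05 there were 3 members, all higher, beside 15.3% of tested records. Mrpl33, on the record merged with Bre, came nearest to the threshold, with 67.2 FPKM in knockdown against 37.2 FPKM in GFP cell bodies, or 0.85 as log2 ratio (authors' deposited table, q = 0.0774). Mrpl52 had 43.0 against 15.2 FPKM (log2 ratio 1.497, authors' q = 0.267), and Mrpl20 had 32.6 against 15.9 FPKM (1.04, authors' q = 0.262). The values of Mrpl33 and Bre cannot be told apart on this record. Mrpl52, Mrpl20, Mrpl18 and Mrps18c had GFP values under the lowest level tested (27.0 FPKM) and could enter only with a higher knockdown value. Mrpl18 had 30.5 against 14.7 FPKM (1.05), Mrps6 40.7 against 27.8 (0.55) and Mrps18c 30.5 against 24.8 (0.30), while Mrps23 had 14.4 against 28.5 (-0.98), Mrpl34 18.3 against 29.9 (-0.71), Mrpl17 25.7 against 41.9 (-0.71) and Mrps21 30.9 against 39.0 FPKM (-0.34), all log2 ratios of the authors' deposited table with unadjusted p from 0.0612 to 0.658. Tested members had a median of -0.072 beside 0.061 over all tested records, but over 75 members at the 1 FPKM mean the median with 1 FPKM added was 0.16 (47 higher, 28 lower) beside 0.077 over 12546 records. As a share of the summed FPKM, members were lower, at 0.194% in 7SK knockdown against 0.226% in GFP cell bodies, where Gm26924 held 43.0% against 36.8%. Mrpl23 and Mrps33 were listed at 0 in 7SK knockdown cell bodies.

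Mrpl52 and Mrpl17 differed in how their values stood in axons and cell bodies. Mrpl52 was higher in both knockdowns of cell bodies, at 49.1 and 43.0 FPKM against 16.5 and 15.2 FPKM, and also in axons, at 30.1 FPKM with hnRNP R knockdown and 35.99 FPKM in the axons labelled 7SK knockdown against 22.8 and 23.4 FPKM in GFP. Mrpl17 was lower than GFP in both knockdowns of cell bodies and higher than GFP in both axon groups. Except in hnRNP R knockdown axons, the GFP value of Mrpl52 lay under the lowest level tested. Mrpl52 could thus be tested there only with a higher knockdown value, as could Mrpl17 in the axons labelled 7SK knockdown. Those directions are no result. The pairs of comparisons within a compartment share their GFP libraries, a difference between compartments was not tested, and no value of either gene passed the authors' threshold.

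**Figure D3:**
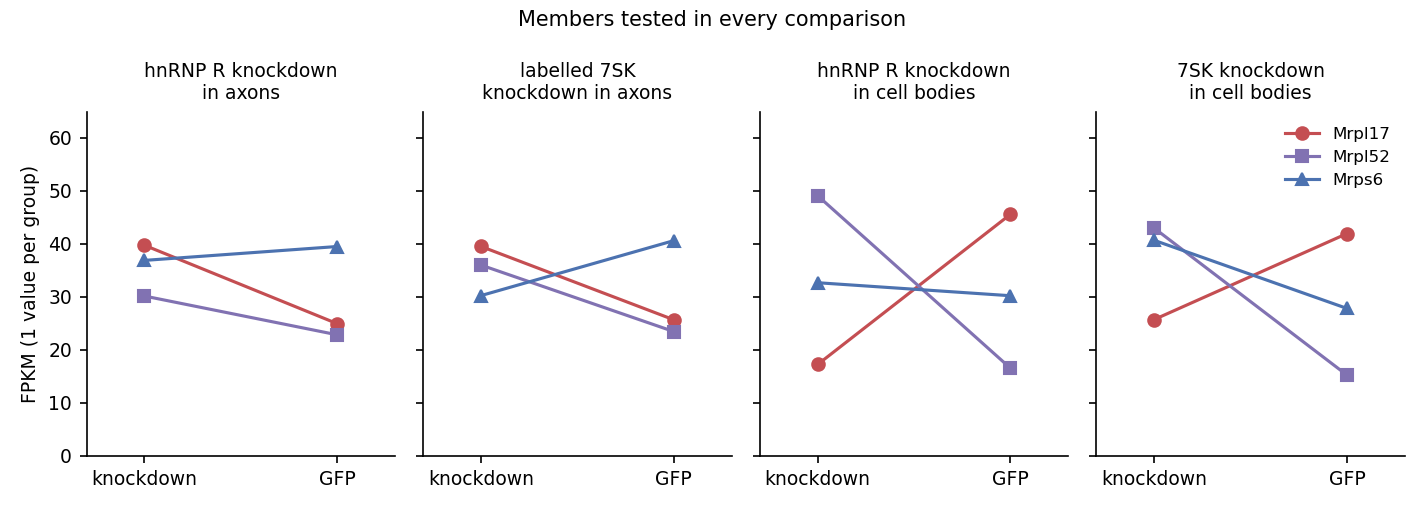
FPKM (y, 1 value per group) of Mrpl17, Mrpl52 and Mrps6 in knockdown and GFP groups (x) in each of the 4 comparisons. Mrpl52 is higher with knockdown in all 4 panels, at 49.1 against 16.5 FPKM in hnRNP R knockdown cell bodies, while Mrpl17 is higher in axons and lower in cell bodies. The genes are shown because they were tested in every comparison. Except in hnRNP R knockdown axons, Mrpl52 could be tested only with a higher knockdown value. The same held for Mrpl17 in the axons labelled 7SK knockdown, so those directions are no result.

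Other genes of mitochondrial translation were read from fixed lists. Of 6 ribosomal subunits named otherwise, all 3 tested in an axon or cell body table had no call: Dap3, of the small subunit, had 29.4 FPKM in hnRNP R knockdown against 25.3 FPKM in GFP cell bodies, Aurkaip1 27.7 FPKM in hnRNP R knockdown against 14.0 FPKM in GFP axons, and Ict1, which releases stalled ribosomes, 22.0 against 11.6 FPKM there. In cell bodies Aurkaip1 had 14.4 FPKM with hnRNP R knockdown against 23.0 FPKM in GFP, and Ict1 24.1 against 19.1 FPKM. The axon GFP values of Aurkaip1 and Ict1 lay under 21.8 FPKM, the lowest level tested there. That of Ict1 in cell bodies lay under 20.9 FPKM, the lowest level tested there. These could enter only with a higher knockdown value, so their direction there is no result. Translation factors (15 genes), assembly factors (17 of 21 matched) and genes of mitochondrial RNA and DNA maintenance (11 of 12 matched) had at most 1 tested gene in each comparison and no call. Of the 19 tRNA synthetases, Gars and Kars, which serve cytosol and mitochondria alike, and Lars2 were tested in every table. Lars2 rose in 7SK knockdown cell bodies, at 3525 FPKM against 2207 FPKM in GFP cell bodies (authors' deposited table: log2 ratio 0.68, q = 0.00407), the only call among the 68 matched genes of these lists. Its level stands far above the median of the synthetase list, 3.72 FPKM in 7SK knockdown and 3.70 FPKM in GFP cell bodies, and Gm26924 held 43.0% against 36.8% of the summed FPKM in that comparison; whether all its reads come from the synthetase mRNA was not tested.

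hnRNP R iCLIP cDNAs fell on 73 of the 76 members, but made up a small share of each library. The 10 hnRNP R libraries held 1903 cDNAs on members, 0.12% of 1583243 assigned to genes, and 0 on Mrpl54, Mrps12 and Mrps16. The libraries held 2796 to 456721 cDNAs and the IgG library 36280. In motoneurons, members took 0.0599% and 0.0686% of the cDNAs of replicates 1 and 2 (215 and 219 cDNAs). In NSC34 cells they took 0.217% and 0.188% (992 and 188 cDNAs), and in the IgG library 0.157% (57 cDNAs, exact 95% binomial interval 0.119% to 0.204%). The intervals of the motoneuron replicates ran from 0.0522% to 0.0783% in all and those of the NSC34 replicates from 0.162% to 0.231%. The share was thus lower in motoneurons, on average 0.0642% ± 0.00614 against 0.203% ± 0.0203 in NSC34 cells (SD, n = 2 each); the exact permutation test of 2 against 2 gives a two-sided p = 0.333, the smallest this design allows. The NSC34 replicate 2 interval overlaps that of IgG. That of NSC34 replicate 1 starts at 0.2039%, just above the upper end for IgG, 0.2035%. With 1 IgG library and intervals of counting error, a share above the IgG background was not shown for either replicate. The IgG file header names hnRNP R as its protein and gives the library number of NSC34 replicate 2; it is taken as IgG from its title alone. Intervals and floors cover counting error only.

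**Figure D4:**
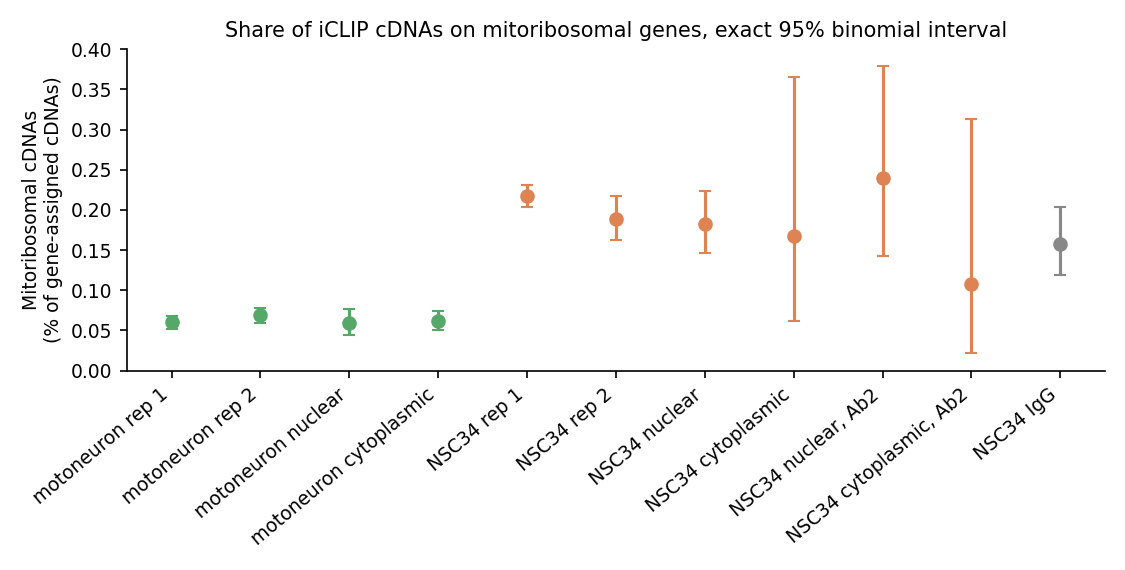
Share of gene-assigned cDNAs that fell on mitoribosomal genes (y, percent) in each of the 11 iCLIP libraries (x), with exact 95% binomial intervals. The 4 motoneuron libraries lie between 0.0591% and 0.0686%. The IgG library, at 0.157%, is from NSC34 cells. There is no IgG library from motoneurons, so their background share is unknown.

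Fractions were read next. Members took 0.0591% of the nuclear and 0.0616% of the cytoplasmic motoneuron library (54 and 120 cDNAs). In NSC34 cells antibody 1 gave 0.182% and 0.168% in the nuclear and cytoplasmic libraries (88 and 6 cDNAs), and antibody 2 gave 0.24% and 0.107% (18 and 3 cDNAs). With at most 6 cDNAs in a cytoplasmic NSC34 library, no difference between fractions was detectable at this depth. In one edgeR quasi-likelihood fit of the 6 libraries with a block for each pair, 6 members had enough cDNAs to be tested. No member and 0 of 5177 genes were called (0%); at an unadjusted p under 0.05 there were 0 members and 27 genes (0.522%), and DESeq2 called 0 members and 3 genes.

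Most cDNAs on members were intronic. Of the 1903, 1477 (77.6%) fell in introns, 221 in the part the files call ORF, 200 in 3′ UTRs and 5 in 5′ UTRs. Per kilobase there were 1.68 cDNAs in introns, 2.83 in the ORF part and 3.94 in 3′ UTRs. These values cover the 61, 54 and 42 members whose part length could be recovered, which needs at least 1 cDNA there. Parts without a cDNA were thus left out, which raises the values, and the fewest members remained for 3′ UTRs. The order of the parts per kilobase is therefore no result. The intronic percentage was 75.8 and 81.7 in the motoneuron replicates, 74.2 and 77.1 in the NSC34 replicates and 78.9 in the IgG library, beside 88.1, 86.5, 77.3, 70.7 and 76.2 over all genes of those libraries in that order. Nuclear and cytoplasmic motoneuron libraries had 92.6% and 89.2%. The files' ORF part is wider than a coding sequence (4534 bases for Mrpl33), so an ORF cDNA need not lie in coding sequence.

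The cDNAs were concentrated on few members: 5 genes held 40.1% and 10 genes 55.8% of them. First was Mrps9, a small subunit protein of bacterial descent, with 260 cDNAs, 254 of them intronic. Mrpl33 followed with 169, but its gene model in these files spans 105038 bases against 8694 in RefSeq, so cDNAs of a neighbour may be among them. Mrps28 (118, of which 116 intronic) and Mrps27 (116, all intronic) came next, then Mrpl1 (100, 92 intronic), Mrpl3 (73, 55 intronic), Mrpl48 (71, 67 intronic), Mrpl15 (61, 37 intronic), Mrpl13 (49, 42 intronic) and Mrps35 (45, 29 intronic). Long genes led the list, with a Spearman's rho of 0.77 between gene span and cDNAs across the 76 members, a description that shares the libraries. In 21 of the 73 members with cDNAs more were exonic than intronic, together 266 cDNAs, and 13 of these had no intronic cDNA. Mrpl17 had 32 of its 35 cDNAs in the 3′ UTR and 0 in introns. Its 3′ UTR and ORF part take 3022 and 723 of its 4442 bases in these files, which leaves little room for introns. These counts by part were not adjusted for part length. In Mrpl30, 24 of 39 cDNAs were in the ORF part. Mrps14, named after its values were seen, had 19 of 32 in the 3′ UTR, and Mrps2, likewise named afterwards, had all 18 in the ORF part. That part covers 2890 of the 3113 bases of Mrps2 in these files, so its count there is no result. FPKM in GFP cell bodies and exonic cDNAs of the 2 motoneuron replicates had a rho of -0.16 over the 76 members. Only 40 members had such a cDNA, with 92 exonic cDNAs in all and at most 7 per gene. FPKM is scaled to gene length and comes from the somatodendritic side, while the cDNA counts are unscaled and come from whole cells. Whether exonic cDNAs follow the mRNA level thus cannot be judged from these values.

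**Figure D5:**
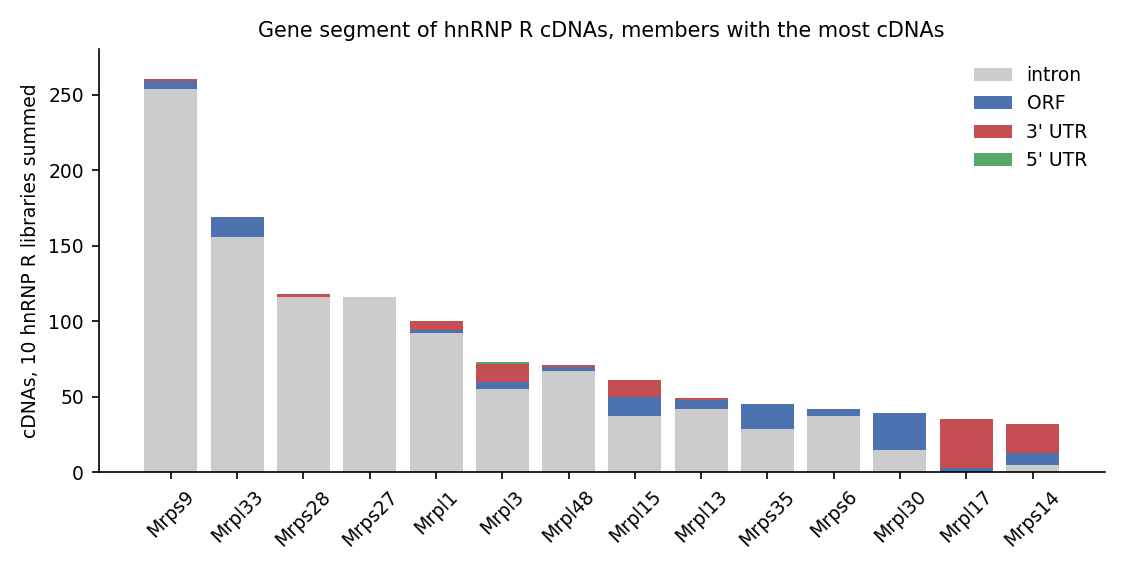
cDNAs summed over the 10 hnRNP R libraries (y) for the 14 members with the most (x), split by gene part. Grey introns make up nearly all of the 260 cDNAs of Mrps9, while Mrpl17 has 32 of 35 in the 3′ UTR and 0 in introns. Introns take 53032 of the 54398 bases of Mrps9 in these files. The 3′ UTR and ORF part of Mrpl17 take 3022 and 723 of its 4442 bases. A preference for a gene part was not tested.

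Motoneurons and NSC34 cells differed on 6 members, all lower in motoneurons. The edgeR quasi-likelihood fit of the 5 unfractionated libraries tested 37 members with at least 10 cDNAs; 0 were called higher and 6 lower at an adjusted p under 0.05. Over all 9567 tested genes 23.4% were called higher and 13.9% lower, 37.3% in all, and the 6 of 37 stand near the lower share. Mrps9 had 25 and 18 cDNAs in the motoneuron replicates against 148 and 31 in the NSC34 replicates, and 9 with IgG; per 100000 cDNAs this was 6.96 and 5.64 against 32.4 and 31.1, and 24.8 with IgG. Its log2 ratio after scaling was -1.39 ± 0.32 (SE, adjusted p = 0.00023, edgeR). Mrps28 had 8 and 6 cDNAs in motoneurons against 64 and 20 in NSC34 cells, and 9 with IgG, a log2 ratio of -2.00 ± 0.45 (adjusted p = 0.00022, edgeR). The IgG value of Mrps28, 24.8 per 100000 cDNAs, lay above its NSC34 values of 14.0 and 20.0. Mrpl33 had 17 and 14 cDNAs in motoneurons against 89 and 24 in NSC34 cells (log2 ratio -1.26 ± 0.36, edgeR adjusted p = 0.00383). Mrpl15, of the large subunit, had 2 and 3 against 42 and 4, and 0 with IgG (-2.38 ± 0.66, edgeR adjusted p = 0.00246). Mrpl30 had 0 and 3 against 30 and 5 (-2.75 ± 0.80, edgeR adjusted p = 0.00399), and Mrpl17 had 2 and 2 against 26 and 3 (-2.06 ± 0.78, edgeR adjusted p = 0.0303). The last 3 rest on 3 to 5 cDNAs in NSC34 replicate 2, and without NSC34 replicate 1 only 15 members could be tested and 3 were called, Mrpl33, Mrps28 and Mrps9. Without motoneuron replicate 1 the adjusted p was 0.0602 for Mrpl17 and 0.0526 for Mrpl30, and without motoneuron replicate 2 it was 0.0506 for Mrpl17 (edgeR). DESeq2 called 2 members, Mrps28 and Mrps9. At an unadjusted p under 0.05 there were 9 members and 44.8% of all genes.

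Scaling weighed on this comparison. With TMM factors the median log2 ratio was -0.70 over the 37 tested members and 0.080 over all genes, and 2237 genes were called higher and 1329 lower. With library totals alone the medians were -1.62 and -0.86, a shift of all genes, with 1343 called higher and 3554 lower and 15 members lower. The member median lay below that of all genes either way; without NSC34 replicate 1 it was 0.091 over 15 members, against 0.23 over all genes. NSC34 RNA levels were not analysed here, and motoneurons have no IgG library. No tested member was called above IgG in NSC34 cells. A lower mRNA level, less hnRNP R crosslinking and a different background therefore cannot be told apart.

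Against IgG, no mitoribosomal gene was called in NSC34 cells. Of 37 members in the edgeR fit 0 passed, with 0.533% of 9567 genes called. The smallest adjusted p of a member was 0.372, at an unadjusted p under 0.05 there were 2 members, Mrpl15 and Mrpl13, and 10.3% of genes, and DESeq2 called 0. Mrpl13 had 27 and 8 cDNAs in the NSC34 replicates and 0 of 36280 with IgG, which allows a share of up to 0.00827%, against 0.00591% and 0.00802% in the replicates; a difference was not detectable at this depth. Mrpl15, also at 0 with IgG, had 42 and 4 cDNAs in the NSC34 replicates, or 0.0092% and 0.0040%. The first share lies above that limit and the second below it, and Mrpl15 was not called. The other members in the leading group had IgG cDNAs themselves, from 2 on Mrpl3, Mrpl48 and Mrps35 to 9 on Mrps9 and Mrps28, so hnRNP R crosslinking above this background was not shown for any single member.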

How the data were processed

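RNA-seq was done by the submitters on axonal and somatodendritic RNA, and iCLIP on whole and fractionated cells. The FPKM values and log2 ratios (knockdown over GFP) were deposited by the authors, 1 value per group, made with Cufflinks 2.2.1 after FastQC 0.10.1 on build GRCm38, per the submitters' processing notes. Each p-value and q-value, and the test statistic (a score), was deposited by the authors; no source used here gives the aligner, annotation or test settings. A table's groups were read from its own sample columns, since some labels list a table of another group. Records that merge genes share 1 value (6 members). With group values only, no RNA test was rerun.

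The iCLIP count of cDNAs per gene and gene part was deposited by the authors on build mm9 with Ensembl release 59, per the file headers. The deposited density signal served only to recover part lengths, and 1177 further per-library columns were not used. Counts of genes with at least 10 cDNAs in a fit were tested with edgeR 4.0.16 (R 4.3.3, quasi-likelihood, TMM, Benjamini-Hochberg at 0.05). SE is the log2 ratio over the square root of F. A check on simulated counts used larger changes than those of the called members, so it does not cover changes of their size. DESeq2 1.42.0 was an alternative. Replicate pairs differed beyond sampling noise. Fractions were blocked by cells and antibody as titled.

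Named genes were, per RNA comparison, called members and then tested ones by absolute log2 ratio up to 10; the 10 highest and 5 lowest in control axons; and the 10 with the most cDNAs plus any called. Subunit classes were assigned by hand. Members, lists and motifs were chosen with earlier results of these data known.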

Additional observations from a re-analysis of the deposited data

How the results depend on the processing

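No paired analysis was possible for the RNA tables because they hold 1 value per group. Medians of tested members rest on which members had a test. Over all members at 1 FPKM or more in either group, over those at 5 FPKM or more (0.1 FPKM added), and, added after seeing the data, over those with a mean of 1 FPKM or more (1 FPKM added), the medians were 0.40, 0.40 and 0.33 for hnRNP R knockdown in axons, -0.057, -0.067 and -0.045 for axons labelled 7SK knockdown, -0.12, -0.082 and -0.12 for hnRNP R knockdown in cell bodies, and 0.17, 0.20 and 0.16 for 7SK knockdown in cell bodies, so the last 3 comparisons changed sign against the tested members. Less the median of all tested genes, the axon medians were 0.55 and 0.39. At an unadjusted p under 0.05 there were 1, 5 and 3 members (hnRNP R in axons, hnRNP R in cell bodies, 7SK in cell bodies), and 1 in 7SK knockdown cell bodies at q under 0.1. The median ratio of axons over cell bodies was -0.40 with the GFP values of the 7SK tables.

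For motoneurons over NSC34 cells DESeq2 called 1530 genes and 2 members, and library totals (added after seeing the data) 15 members. Leaving out 1 replicate gave 1954 to 3106 genes and 3 to 7 members. Mrpl17 lost its call in 4 alternatives, Mrpl30 in 2, and Mrpl15 and Mrpl33 with DESeq2. Same-numbered motoneuron and NSC34 libraries share only a number (correlation of deviations 0.014). The fit with the replicate block on 4 libraries called 3211 genes and 6 members, against 3515 and 7 without the block; Mrpl17 lost its call with the block (adjusted p = 0.0669). NSC34 over IgG gave 11 genes with DESeq2, 81 with library totals and 6 to 162 when 1 replicate was left out, with 0 members in each. Nuclear over cytoplasmic gave 1 gene with RLE factors, with library totals and at 30 cDNAs, 3 with DESeq2 and 0 to 6 when 1 pair was left out; without the replicate block it gave 0. Without its 10 top genes, NSC34 replicate 1 had a member share of 0.233%. The cause of these changes was not tested. Of single genes, 88 values were counted as unchanged, 8 lost the call and 0 changed sign. For RNA values the only alternative was 1 FPKM added to both groups, which cannot change the sign of a ratio. Mrpl15, Mrpl17 and Mrpl30 had too few cDNAs to be tested without NSC34 replicate 1. This was not counted as a lost call, so the tally says little about stability. Depth limits the cytoplasmic NSC34 libraries most (6 and 3 member cDNAs).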
